A study of Homo sapiens with 23 samples.

Results

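Transforming growth factor beta (TGF-beta) is secreted as 3 closely related ligands that are held inactive outside the cell by their own propeptide and by latent TGF-beta binding proteins. A released ligand binds the type II receptor, which phosphorylates the type I receptor, and the type I receptor phosphorylates the signal transducers SMAD2 and SMAD3. In epithelial cells of the lung the pathway restrains growth, induces matrix genes and switches on its own inhibitors. The 9 genes described here were chosen by symbol. They are the ligand genes *TGFB1*, *TGFB2* and *TGFB3*, the receptor genes *TGFBR1* (type I) and *TGFBR2* (type II), the transducer gene *SMAD3*, and the early target genes *SMAD7* (an inhibitory SMAD that turns the receptors off), *SKIL* (the SMAD co-repressor SnoN) and *TGFBI* (a secreted matrix protein named for its induction by TGF-beta). All 9 were found once in each count table, among 61806 genes of the first libraries and 42901 genes of the deep libraries.

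The samples were A549 cells, an established human lung carcinoma epithelial line, in which *THUMPD3*, the gene for an RNA guanosine methyltransferase, had been depleted so that its part in proliferation and migration could be examined. The first 17 libraries held the siRNA knockdown siTHUMPD3 (n = 3) with siControl (n = 2), the shRNA knockdown shD3#1 (n = 3) with sh1Control (n = 3), and the shRNA knockdown shD3#4 (n = 3) with sh4Control (n = 3). Another 6 libraries, sequenced more deeply, held shD3#1 (n = 3) and sh1Control (n = 3) again. All controls carry the genotype WT in the labels, which do not say whether they received a control hairpin or siRNA or were left untreated. The hairpins were expressed from a doxycycline-inducible lentiviral vector in puromycin-selected cell pools and harvested on day 6. The siRNA was transfected and the cells harvested on day 5, so that delivery, doxycycline and harvest day cannot be told apart. The study's methods code controls as untreated and knockdowns as treated. They do not state whether the hairpin controls received doxycycline. The samples are numbered as biological replicates, but separate cultures are not described, and p-values measure the spread between these samples.

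Total counts per library ranged from 9854294 (shD3#1 replicate 3) to 22101059 in the first libraries and from 27285889 to 59974740 in the deep libraries. Mitochondrial rRNA took 23.2% to 34.3% of the counts in the first libraries and at most 0.032% in the deep ones. Levels are given as cpm, the counts scaled to a common library size after TMM normalisation by edgeR. *THUMPD3* was at 59.6 to 62.5 cpm in sh1Control and 30.5 to 32.9 cpm in shD3#1, at 58.6 to 66.0 cpm in sh4Control and 19.2 to 20.2 cpm in shD3#4, at 65.7 and 68.5 cpm in siControl and 10.5 to 12.4 cpm in siTHUMPD3, and at 53.0 to 55.9 cpm and 24.9 to 28.3 cpm in the deep controls and knockdowns. It was below its own controls in every knockdown library, with log2 fold changes of -0.97, -1.67, -2.54 and -1.01 in shD3#1, shD3#4, siTHUMPD3 and deep shD3#1. The 11 epithelial and A549 markers summed to between 9382 and 17410 cpm in the first libraries and between 9574 and 12090 cpm in the deep ones. Among them the alveolar gene *SFTPC* was near 0. *NAPSA* was low, at 1.15 to 2.77 cpm in the first libraries and 1.39 to 2.02 cpm in the deep ones. Fibroblast markers, 8 genes, summed to 4.90 to 20.1 cpm and 10.9 to 33.9 cpm, and this sum was higher in each knockdown than in its controls. The means of *COL1A1*, *COL3A1* and *LUM* rose in every comparison. The mean of *THY1* fell in shD3#1 (1.68 to 1.32 cpm) and deep shD3#1 (2.66 to 0.674 cpm). In shD3#4 (1.61 and 1.61 cpm) and siTHUMPD3 (2.04 and 2.10 cpm) it was near its controls. *COL1A1*, *COL3A1*, *LUM* and *THY1* were counted in every group, while *DCN* and *COL1A2* were at or near 0. Leukocyte markers, 5 genes, summed to 2.55 to 5.10 cpm in the first libraries, mainly *CD14*. In the deep ones they summed to 52.2 to 54.8 cpm in sh1Control and 94.96 to 103 cpm in shD3#1, mainly *CD68*. In the first libraries *CD68* was near 0. *PTPRC* and *CD3E* were at or near 0 throughout. Endothelial markers, 4 genes, summed to at most 2.17 cpm, and were higher in shD3#4 (1.09 to 1.72 cpm against 0.421 to 0.479) and siTHUMPD3 (1.74 to 2.17 cpm against 0.139 to 0.327) than in the controls. The part of these markers in the results below was not tested.

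**Figure D1:**
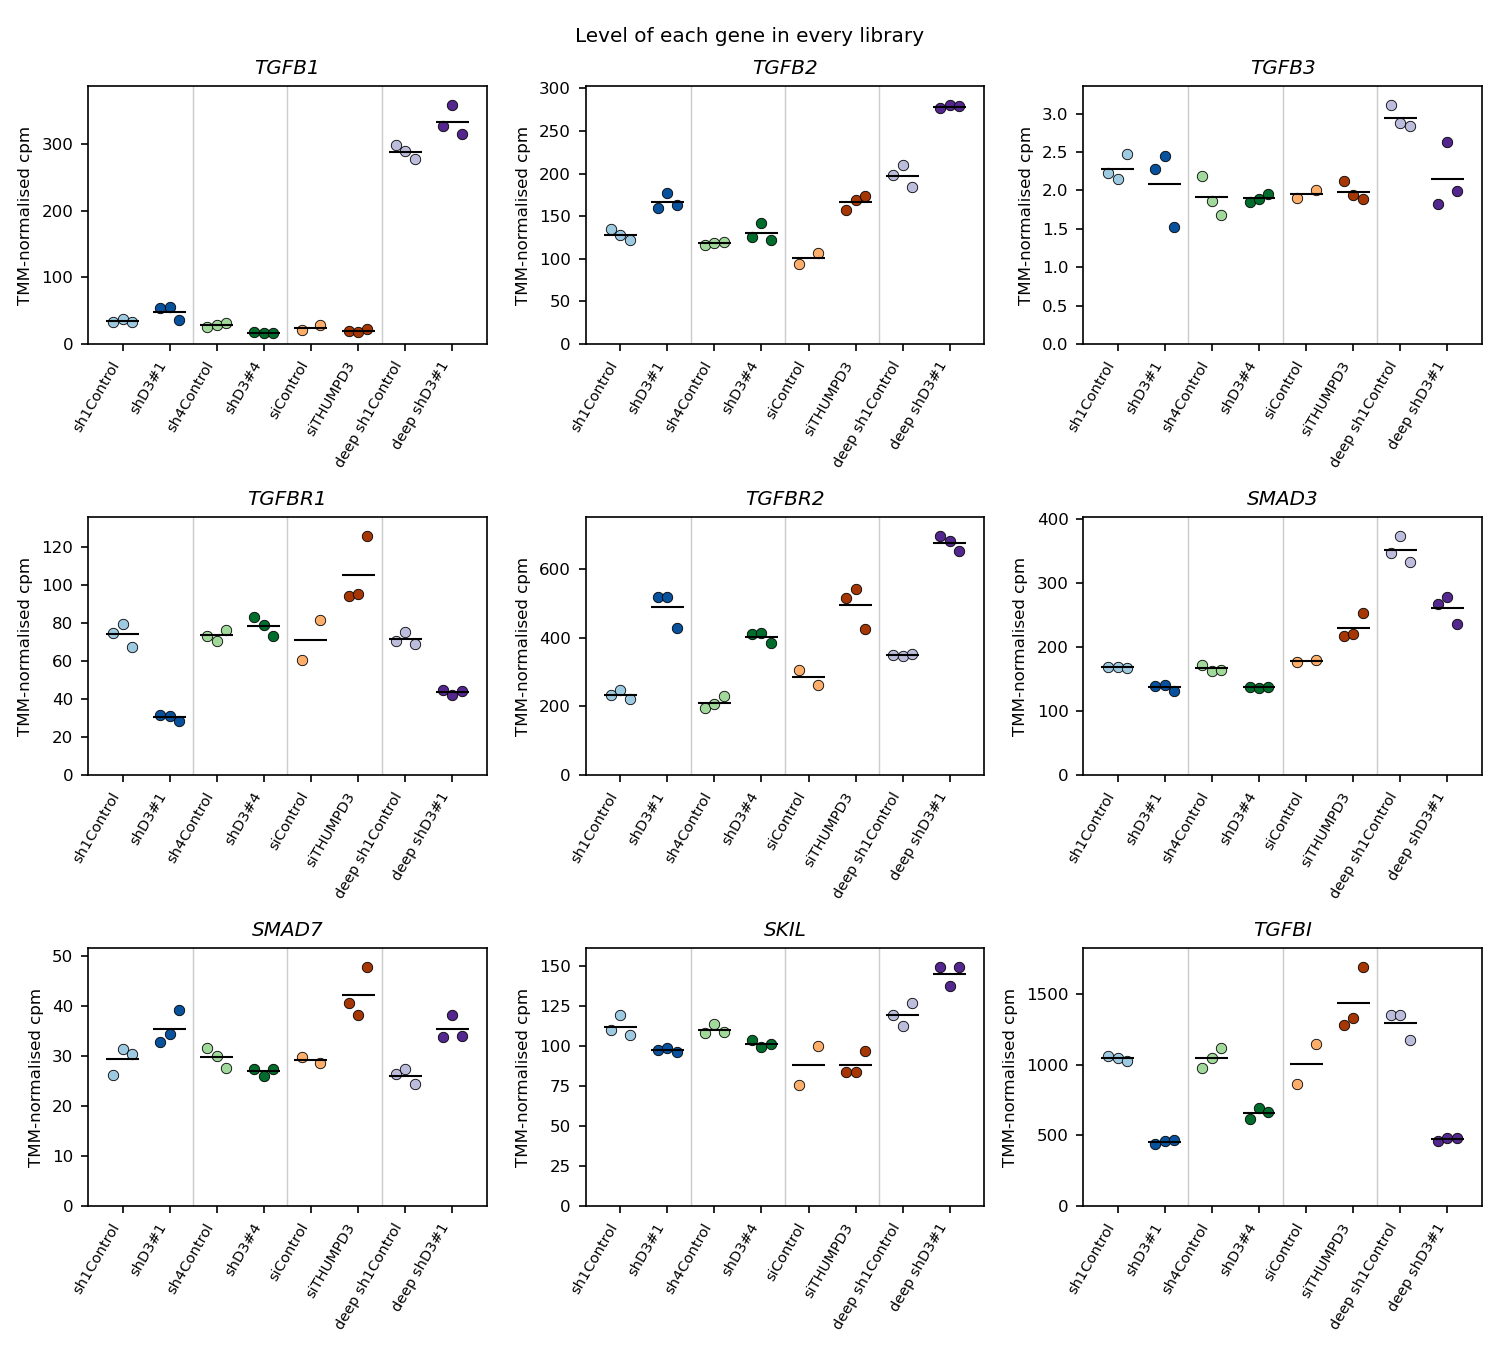
Level of each of the 9 genes in TMM-normalised cpm (linear axes from 0) in all 23 libraries, with 1 point per library and a bar at the group mean; grey lines part the 4 comparisons. *TGFBR2* was higher in every knockdown library than in its own controls, *TGFBI* was lower in both shRNA knockdowns and above both controls in siTHUMPD3, where it did not pass the test, and *TGFB1* lay near 30 cpm in the first libraries and near 300 cpm in the deep ones.

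The level of each gene was first compared with that of the others per kilobase of exon, over the 17 first libraries on 1 scale. *TGFBI* was the most abundant with a mean of 122 cpm per kb, followed by *TGFBR2* with 52.1, *TGFB2* with 22.6, *SMAD3* with 16.9 and *SKIL* with 12.3. *TGFBR1*, *TGFB1* and *SMAD7* followed at 9.08, 8.81 and 8.19 cpm per kb. *TGFB3* was last with 0.387 cpm per kb and 15 to 49 counts in a library. The ranges over libraries of all neighbours in this order overlapped, except that *TGFB3* (0.283 to 0.465 cpm per kb) lay below every library of every other gene. Among the ligands in the first libraries, *TGFB2* was thus the most abundant in each group, at 1.58 to 5.13 times the level of *TGFB1* per kb in a library. In the deep libraries the order of these 2 ligands was the opposite, with *TGFB2* at 0.357 to 0.477 times *TGFB1*.

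That change of order came with *TGFB1*. Its mean in sh1Control was 34.3 cpm in the first table and 289 cpm in the deep table, 8.42 times as high. The other 8 genes differed between the tables by 0.89 to 2.09 times. Some markers and genes listed below also differed strongly. In sh1Control, *CCN2* had unscaled counts of 120, 133 and 136 in the first table and 16139, 13144 and 15397 in the deep one. *SKI* had 180, 217 and 275 against 3920, 3520 and 3783, and *CD68* 0, 1 and 0 against 2697, 2462 and 2509. *ID4* went the other way, with 162, 128 and 134 against 10, 11 and 30. These were chosen after their values had been seen. Their part in the calls was not tested. The tables were normalised separately and list their genes by different annotations. In the GENCODE 44 annotation *TGFB1* (minus strand, chr19:41301587-41353922) shares 215 exon bases with *HNRNPUL1* on the opposite strand. In the RefSeq annotation *TGFB1* runs only from 41330323 to 41353922 and *HNRNPUL1* ends at 41307787, so that these 2 genes do not overlap. Whether this bears on the level of *TGFB1* was not tested, and its place in the order depends on which table is used. Exons of *TGFB2*, *TGFB3* and *SMAD3* also lie opposite non-coding antisense genes, by 701, 163 and 182 bases, and the sources used here do not state which strand setting was counted. *THUMPD3* itself shares 730 exon bases with the antisense gene *THUMPD3-AS1*. That gene had 13614 counts over the 17 first libraries, against 12512 for *THUMPD3*. Whether this bears on the *THUMPD3* levels was not tested.

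The sequence before the start site is shown for 3 of the genes, *TGFBR2* and *TGFBI* because they were called in more than 1 knockdown and *SMAD7* because it is the textbook direct target of SMAD3. SMAD proteins bind the letters CAGAC, which were searched on both strands together with the palindrome GTCTAGAC, in the 250 bases before each RefSeq start. CAGAC or its complement GTCTG was held by 38.0% of all 35116 such windows and by 11 of the 24 windows of the 9 genes, at least 1 for 6 of the genes. GTCTAGAC was held by 0.182% of all windows and by 0 of the 24. The sequences are from RefSeq on GRCh38.p14, written 5′ to 3′ on the gene's strand, with any CAGAC or GTCTG in capitals. The *TGFBR2* window (plus strand, chr3:30606106-30606355) precedes the more upstream of its 2 RefSeq starts and the *TGFBI* window is at chr5:136028738-136028987 on the plus strand. Neither window held the letters. The *SMAD7* window (minus strand, chr18:48950966-48951215) precedes the most upstream of its RefSeq starts and held them 2 times, from 217 and 128 bases before the start. The windows of its other starts held them 1 and 0 times.
TGFBR2: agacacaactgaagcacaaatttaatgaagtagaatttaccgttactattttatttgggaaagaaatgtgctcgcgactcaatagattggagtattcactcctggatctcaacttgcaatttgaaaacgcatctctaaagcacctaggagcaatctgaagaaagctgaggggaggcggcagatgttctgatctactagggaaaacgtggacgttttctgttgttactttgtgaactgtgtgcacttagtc
TGFBI: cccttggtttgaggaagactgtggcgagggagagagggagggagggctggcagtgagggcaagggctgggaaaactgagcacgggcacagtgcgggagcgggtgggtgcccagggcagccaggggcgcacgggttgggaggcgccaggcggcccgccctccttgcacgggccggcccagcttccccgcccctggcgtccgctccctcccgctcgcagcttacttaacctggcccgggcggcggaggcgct
SMAD7: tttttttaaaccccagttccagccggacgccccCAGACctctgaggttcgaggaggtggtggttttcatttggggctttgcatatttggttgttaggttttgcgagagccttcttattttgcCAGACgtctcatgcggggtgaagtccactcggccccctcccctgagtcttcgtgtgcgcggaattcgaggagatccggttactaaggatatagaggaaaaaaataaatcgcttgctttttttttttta
A match or its absence describes only these letters in these windows. The data hold no measurement of SMAD binding.

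Each knockdown was then compared with its own controls. A gene was called higher or lower where edgeR's quasi-likelihood test gave a Benjamini-Hochberg adjusted p under 0.05 over all genes tested and the fold change was at least 1.5 in either direction. In shD3#1, 1 of the 9 genes was called higher and 2 were called lower, where 14.5% and 14.6% of all genes tested were, and 7 of 9 had no overlap between knockdown and control libraries, against 62% of all genes. In shD3#4, 1 was called higher and 2 lower (8% and 4.5% of all genes) and 7 did not overlap (49.4%). In siTHUMPD3, 2 were called higher and 0 lower (12.5% and 9.42% of all genes, and DESeq2 also called 2) and 6 did not overlap (60%). With no size threshold 5 of the 9 passed there, all of them higher. At an unadjusted p under 0.05 in edgeR it was 6 higher and 0 lower. The shares of all genes at such looser thresholds were not computed, here or below. Counts at those thresholds are thus not read as a result about the listed genes. In deep shD3#1, 1 was called higher and 2 lower (15% and 14.1%) and 9 did not overlap (67.1%). The median log2 fold change of the 9 genes was -0.08, -0.12, 0.51 and 0.21 in this order, where that of all genes was between -0.02 and 0.03.

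**Figure D2:**
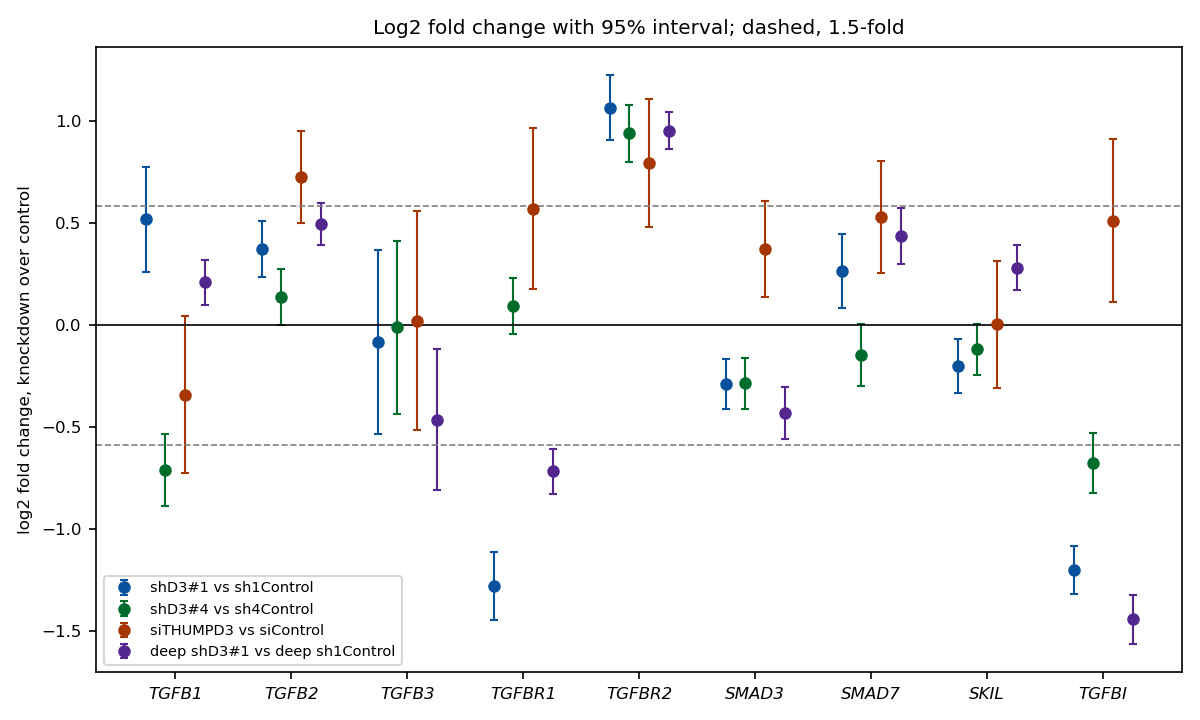
Log2 fold change of each of the 9 genes (points, knockdown over its own control) with its 95% interval (bars) in the 4 comparisons; dashed lines mark 1.5-fold in each direction. The values of *TGFBR2* run from 0.80 to 1.07 and lie above the upper line in all 4, and those of *TGFBI* run from -1.44 to 0.51.

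Among the ligands, *TGFB1* lay below its controls with one hairpin and mostly above them with the other. In bulk libraries such as these, fewer cells with a transcript and less of it per cell cannot be told apart. In shD3#4 it fell, from 24.8, 28.4 and 31.0 cpm in sh4Control to 18.0, 16.8 and 16.7 cpm, which is -0.71 on the log2 scale (0.08 as its standard error, adjusted p = 2.26e-07). In shD3#1 it was at 54.5, 55.2 and 35.6 cpm against 33.2, 36.9 and 32.8 cpm in sh1Control. Replicates 1 and 2 were above all controls and replicate 3, the library of lowest depth, was within their range. The log2 fold change was 0.52 (0.12, adjusted p = 0.00166), under 1.5-fold, and without replicate 3 it was 0.68 (1.76e-17) and past both thresholds. The difference between the hairpins was 1.22 (0.20, adjusted p = 4.61e-05). In siControl it was at 20.6 and 29.0 cpm and in siTHUMPD3 at 18.9, 17.8 and 21.9 cpm, overlapping, with a log2 fold change of -0.34 (0.17, adjusted p = 0.154). The deep libraries gave 299, 290 and 277 cpm in sh1Control and 327, 359 and 316 cpm in shD3#1, a log2 fold change of 0.21 (0.05, adjusted p = 0.00229), without overlap and under 1.5-fold.

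*TGFB2*, the ligand gene on the plus strand at chr1:218345336-218444619, was above its controls in every knockdown library of all 4 comparisons and was called in 1. In siControl it was at 94.4 and 107 cpm and in siTHUMPD3 at 157, 169 and 173 cpm, a log2 fold change of 0.73 (0.10, adjusted p = 0.00125). In sh1Control it was at 135, 128 and 123 cpm and in shD3#1 at 159, 177 and 163 cpm, with 0.38 (0.06, 0.000113), and the deep libraries gave 184 to 210 cpm and 276 to 280 cpm, with 0.50 (0.05, 4.10e-07). In sh4Control it was at 116, 119 and 119 cpm and in shD3#4 at 125, 142 and 122 cpm, with 0.14 (0.07, 0.0959). The siRNA value was thus past both thresholds, those of shD3#1 were past the adjusted p alone, and that of shD3#4 was past neither. *TGFB3*, on the minus strand at chr14:75958097-75983011, was at 1.53 to 2.47 cpm in all of the first libraries and overlapped its controls in each comparison. A change was not detectable at this depth, where the 95% interval of the log2 fold change ran from -0.43 to 0.41 in shD3#4. In the deep libraries it was at 3.11, 2.88 and 2.83 cpm in sh1Control and at 1.83, 2.63 and 1.99 cpm in shD3#1, a log2 fold change of -0.46 (0.16, adjusted p = 0.0218), and without deep shD3#1 replicate 2 it was -0.62 (0.00614) and past both thresholds.

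*TGFBR2*, the gene of the type II receptor that binds the ligand first, rose in all 3 knockdowns. It was the only one of the 9 genes called in every comparison. The gene (ENSG00000163513) lies on the plus strand at chr3:30606601-30694142 of GRCh38. In sh1Control its level was 233, 247 and 221 cpm, and in shD3#1 it was 519, 519 and 430 cpm. In sh4Control it was 196, 206 and 229 cpm and in shD3#4 411, 414 and 386 cpm. In siControl it was 307 and 263 cpm and in siTHUMPD3 516, 544 and 426 cpm. Every knockdown library of these comparisons lay above every one of its own controls. The log2 fold change was 1.07 in shD3#1 (standard error 0.07, adjusted p = 7.60e-09), 0.94 in shD3#4 (0.07, 4.20e-11) and 0.80 in siTHUMPD3 (0.14, 0.00376). The deep libraries gave 348 to 352 cpm in sh1Control and 655 to 697 cpm in shD3#1, a log2 fold change of 0.95 (0.04, 1.21e-10). The average effect over the 3 knockdowns, from 1 fit of the 17 libraries, was 0.92 (0.06, adjusted p = 2.96e-11), and *TGFBR2* was the 1 gene of the 9 called in that fit, where 17.3% of all genes were called in either direction. The shRNA effects differed by 0.12 (95% interval -0.16 to 0.40) and the siRNA effect lay 0.19 below the mean shRNA effect, a difference of -0.19 (-0.46 to 0.07), so that no difference between the knockdowns was detected for this gene.

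*TGFBR1*, the gene of the type I receptor that carries the signal to the SMAD proteins, fell in shD3#1 and was not called in the other first comparisons. The gene (ENSG00000106799) lies on the plus strand at chr9:99104038-99154192. Its level was 74.9, 79.7 and 67.7 cpm in sh1Control and 31.8, 31.3 and 28.2 cpm in shD3#1, a log2 fold change of -1.28 (0.08, adjusted p = 1.61e-09). The deep libraries of the same hairpin gave 70.5, 75.6 and 69.2 cpm in sh1Control and 44.8, 42.2 and 44.3 cpm in shD3#1, a log2 fold change of -0.71 (0.05, 2.06e-08). With the other hairpin the groups overlapped. Levels were 73.4, 70.8 and 76.5 cpm in sh4Control and 83.2, 79.2 and 73.2 cpm in shD3#4, and the log2 fold change was 0.10 (95% interval -0.04 to 0.23). In siControl it was 60.5 and 81.5 cpm and in siTHUMPD3 94.4, 95.5 and 126 cpm. There every knockdown library was above both controls, with a log2 fold change of 0.57 (0.17, adjusted p = 0.0359), just under 1.5-fold. Without siControl replicate 2 this was 0.79 (adjusted p = 0.0399) and without siTHUMPD3 replicate 1 it was 0.65 (0.0397), both past the thresholds, and with at least 10 counts required in every sample it was 0.62 (0.031). The effect of shD3#1 was lower than that of shD3#4 by a log2 difference of -1.38 (0.16, adjusted p = 8.05e-07), and the siRNA effect was higher than the mean shRNA effect by 1.18 (0.15, 2.93e-06).

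With one receptor gene higher and the other lower, their ratio moved most in shD3#1. Per kb of exon, *TGFBR2* was 3.62 to 3.81 times *TGFBR1* in the sh1Control libraries and 17.8 to 19.3 times in shD3#1. In the deep libraries the ratios were 5.37 to 5.93 and 17.3 to 18.9. They were 3.11 to 3.50 in sh4Control and 5.76 to 6.15 in shD3#4, without overlap. In siControl they were 3.77 and 5.92 and in siTHUMPD3 3.94 to 6.64, and these groups overlapped. The ratio was chosen after the values had been seen and is given as a description.

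*SMAD3*, the transducer phosphorylated by the type I receptor, was lower in both hairpins and higher with the siRNA, in each case by less than 1.5-fold. The gene lies on the plus strand at chr15:67063763-67195173. It was at 169, 168 and 166 cpm in sh1Control and at 140, 141 and 131 cpm in shD3#1 (log2 fold change -0.29, standard error 0.06, adjusted p = 0.000515). In sh4Control it was at 172, 163 and 164 cpm and in shD3#4 at 137, 136 and 137 cpm (-0.28, 0.06, 0.000535). The siControl values of 176 and 179 cpm lay below the siTHUMPD3 values of 217, 220 and 253 cpm (0.37, 0.10, 0.0249). The groups did not overlap in any of the 3. The siRNA effect was higher than the mean shRNA effect by 0.67 (0.09, adjusted p = 4.32e-06), whereas the difference between the hairpins was -0.01 (95% interval -0.20 to 0.18). In the deep libraries *SMAD3* was at 346, 373 and 333 cpm in sh1Control and at 268, 278 and 236 cpm in shD3#1 (-0.43, 0.06, 1.64e-05).

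The early targets *SMAD7* and *SKIL*, both feedback inhibitors of the pathway, were called in none of the comparisons. *SMAD7* (minus strand, chr18:48919853-48950965) was at 29.8 and 28.5 cpm in siControl and at 40.7, 38.1 and 47.8 cpm in siTHUMPD3, a log2 fold change of 0.53 (0.12, adjusted p = 0.0118), and without siTHUMPD3 replicate 2 it was 0.61 (0.019) and past both thresholds. In sh1Control it was at 26.2, 31.4 and 30.3 cpm and in shD3#1 at 32.9, 34.3 and 39.1 cpm (0.27, 0.09, 0.0145), and the deep libraries gave 24.4 to 27.4 cpm and 33.8 to 38.2 cpm (0.44, 0.06, 3.19e-05). In sh4Control it was at 31.7, 30.0 and 27.5 cpm and in shD3#4 at 27.5, 26.0 and 27.3 cpm (-0.14, 0.07, 0.126). The *SMAD7* values were thus above the controls in siTHUMPD3 and shD3#1 and just below them in shD3#4. *SKIL* (plus strand, chr3:170357342-170396835) was the 1 gene of the 9 whose sign differed between the 2 sets of libraries of shD3#1. In the first libraries it was at 110, 119 and 107 cpm in sh1Control and at 97.8, 98.4 and 96.4 cpm in shD3#1 (-0.20, 0.06, adjusted p = 0.0134). In the deep libraries it was at 119, 112 and 127 cpm in sh1Control and at 149, 137 and 149 cpm in shD3#1 (0.28, 0.05, 0.000244). The groups did not overlap in either set, and whether both sets came from the same cultures is not stated. In sh4Control it was at 108, 114 and 109 cpm and in shD3#4 at 104, 99.5 and 101 cpm (-0.12, 0.06, 0.132), and siControl (75.7 and 99.9 cpm) and siTHUMPD3 (83.5, 83.5 and 96.9 cpm) overlapped, with a log2 fold change of 0.00 (95% interval -0.31 to 0.32).

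*TGFBI*, the matrix protein gene and the most abundant of the 9, fell with both hairpins. The gene (ENSG00000120708) lies on the plus strand at chr5:136028988-136063818. It was at 1060, 1049 and 1024 cpm in sh1Control and at 437, 461 and 466 cpm in shD3#1, a log2 fold change of -1.20 (0.06, adjusted p = 6.89e-11). In sh4Control it was at 980, 1050 and 1117 cpm and in shD3#4 at 614, 695 and 664 cpm, a log2 fold change of -0.67 (0.07, 3.54e-08). In the deep libraries it was at 1351, 1353 and 1176 cpm in sh1Control and at 463, 485 and 481 cpm in shD3#1, with -1.44 (0.06, 3.18e-11). No shRNA library reached any of its controls. The siRNA samples went the other way without passing the test. Levels were 866 and 1145 cpm in siControl and 1284, 1331 and 1691 cpm in siTHUMPD3, with every knockdown library above both controls and a log2 fold change of 0.51 (0.17, adjusted p = 0.0537). The siRNA effect was higher than the mean shRNA effect by 1.46 (0.14, adjusted p = 4.78e-08), while the shRNA effects differed by -0.53 (0.14, 0.00544), under the size threshold.

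**Figure D3:**
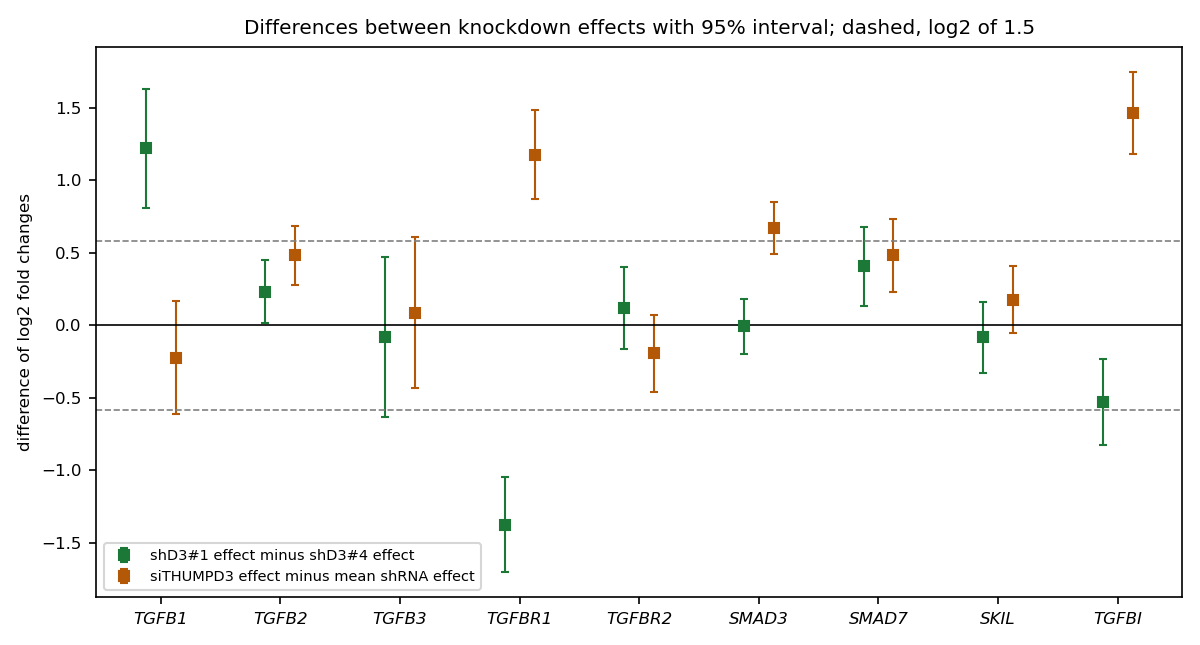
Differences between knockdown effects for the 9 genes, as differences of log2 fold changes (points) with 95% intervals (bars) from 1 fit of the 17 first libraries; dashed lines mark the log2 of 1.5. *TGFB1* (1.22) and *TGFBR1* (-1.38) lie past the lines between the hairpins, and *TGFBR1* (1.18), *SMAD3* (0.67) and *TGFBI* (1.46) lie above the line between the siRNA and the mean of the hairpins.

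Over all genes, 25.9% were called in the difference between the hairpins and 16.5% in the difference between the siRNA and the hairpins, against 2 and 3 of the 9 genes. The plot of differences shows the size of each. The intervals of *TGFBR2*, *TGFB3* and *SKIL* included 0 in both.

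The patterns of *TGFBR2* and *TGFBI* over the 6 first groups were compared with those of all other genes of at least 2 log2 cpm, by Euclidean distance between group means of log2 cpm after each gene's own mean had been taken off. Of 11572 genes, *LGALS3BP* (distance 0.271), *QPCT* (0.275) and *CARD6* (0.282) were nearest to *TGFBR2*, each below its own mean in the 3 control groups and above it in the 3 knockdowns. Nearest to *TGFBI* were *BVES* (0.300), *CXCL2* (0.347) and *RIMS3* (0.382), which were lowest in shD3#1 and highest in siTHUMPD3. These are descriptions over 6 groups with no test.

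The rest of the pathway was described with 7 lists of 113 further genes. The lists were chosen with earlier results of these data known. They are given by counts of called genes, to be read against the shares of all genes called given above. In shD3#1, 31 of 88 genes tested were called higher and 7 lower. In shD3#4 it was 11 and 8 of 88, in siTHUMPD3 23 and 2 of 92, and in deep shD3#1 26 and 9 of 94. The median log2 fold change was 0.20, -0.08, 0.22 and 0.24 in this order.

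**Figure D4:**
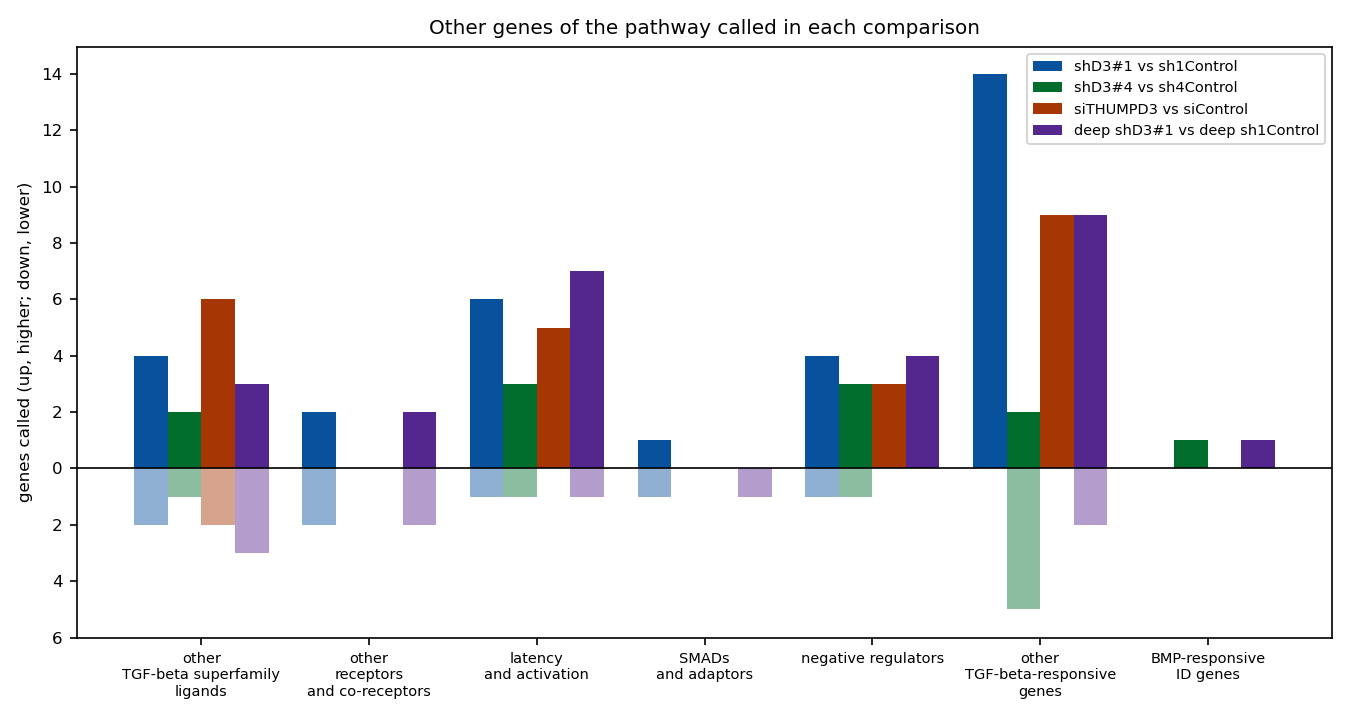
Number of other pathway genes called higher (bars up, full colour) and lower (bars down, pale) in each of 7 lists, for the 4 comparisons. Among genes of latency and activation more were called higher than lower in each comparison, and among the TGF-beta-responsive genes 14 and 9 were called higher in shD3#1 and siTHUMPD3, against 2 higher and 5 lower in shD3#4. Over all genes, the shares called higher and lower were 14.5% and 14.6% in shD3#1 and 8% and 4.5% in shD3#4. They were 12.5% and 9.42% in siTHUMPD3 and 15% and 14.1% in deep shD3#1.

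Among the genes that hold the ligand latent or release it, more were called higher than lower in each comparison. The counts were 6 and 1 of 10 in shD3#1 (14.5% and 14.6% of all genes) and 3 and 1 of 10 in shD3#4 (8% and 4.5%). They were 5 and 0 of 11 in siTHUMPD3 (12.5% and 9.42%) and 7 and 1 of 11 in deep shD3#1 (15% and 14.1%). *LTBP1*, which tethers the latent complex to the matrix, rose in all 3 knockdowns. It went from 45.5 ± 0.725 (SD, n = 3) to 95.3 ± 2.98 cpm (SD, n = 3) in shD3#1, from 40.3 ± 5.64 to 78.2 ± 2.82 cpm in shD3#4 and from 38.2 ± 3.88 (n = 2) to 61.1 ± 1.52 cpm in siTHUMPD3, where without siControl replicate 2 its log2 fold change of 0.68 became 0.57 and was no longer past 1.5-fold. *ITGB8*, the integrin subunit that can free TGF-beta from the complex, also rose in all 3, with log2 fold changes of 1.88 (0.08, adjusted p = 2.76e-11), 0.90 (0.11, 2.61e-07) and 1.04 (0.19, 0.00494). The related *ITGB6* rose in shD3#4 (1.03, 0.12, 1.65e-07) and was not called in the other 3 comparisons. *ITGB5*, the most abundant of the list, rose in shD3#1 (0.62, 0.07, 9.94e-07), a call lost without shD3#1 replicate 2 (0.57). In deep shD3#1 it was called higher at 0.71. *LTBP4* fell with both hairpins (-0.75, 0.12, 6.81e-05 and -0.68, 0.09, 5.68e-07). *LRRC32*, a cell-surface anchor of latent TGF-beta, was called higher in siTHUMPD3 from 14, 17 and 11 counts against 1 and 2 in siControl, and that call was lost without either control.

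Of the other ligands of the superfamily, 4 were called higher and 2 lower of 13 in shD3#1, 2 and 1 of 13 in shD3#4, 6 and 2 of 15 in siTHUMPD3 and 3 and 3 of 16 in deep shD3#1. *BMP2*, a bone morphogenetic protein, rose in all 3 knockdowns, with log2 fold changes of 0.63 (0.12, adjusted p = 0.000252), 0.87 (0.11, 3.64e-07) and 1.39 (0.16, 0.00068). Its call in shD3#1 was lost without sh1Control replicate 2 (0.57) or shD3#1 replicate 2 (0.54), and in deep shD3#1 it was 0.34 (0.0120) and not called. *BMP6* went in opposite directions with the hairpins, from 18.1 ± 0.215 to 11.0 ± 1.10 cpm in shD3#1 and from 16.1 ± 2.19 to 37.2 ± 1.67 cpm in shD3#4. In deep shD3#1 *BMP6* was not called. *BMP7* fell with both hairpins, to -1.95 (0.33, 0.000119) and -1.08 (0.31, 0.00621), from at most 1.46 cpm. *GDF15*, a stress-induced ligand of the superfamily and the most abundant of these, rose in shD3#1 (0.77, 0.08, 9.22e-07) and siTHUMPD3 (1.33, 0.17, 0.000878) and was not called in shD3#4 (-0.38, 0.09, 0.00127) or in deep shD3#1 (-0.09, 0.05, 0.125). *INHBA*, the activin A subunit, rose in shD3#1 (2.43, 0.44, 0.000183) from at most 0.208 cpm, and in siTHUMPD3 it was called higher from 36, 31 and 124 counts against 1 and 3 in siControl, a call lost without either control. *INHBB* fell in siTHUMPD3 (-1.08, 0.26, 0.0161), a call lost without siControl replicate 1 (-0.78). *BMP3* was called higher in deep shD3#1 from 9, 10 and 10 counts against 2, 0 and 0.

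Of the other receptors and co-receptors, 2 were called higher and 2 lower of 9 in shD3#1 and 2 and 2 of 10 in deep shD3#1, against 0 of 9 in shD3#4 and in siTHUMPD3. At an unadjusted p under 0.05 these edgeR counts were 5 of 9 in shD3#4 and 4 of 9 in siTHUMPD3, and DESeq2 also called 0 in both. *TGFBR3*, the co-receptor betaglycan that presents TGFB2 to the type II receptor, rose in shD3#1 (0.84, 0.07, adjusted p = 4.45e-08), and *CD109*, the most abundant of the list and an inhibitory co-receptor, rose as well (0.67, 0.06, 1.08e-07). *BMPR2*, the type II receptor of the BMP branch, fell there (-1.04, 0.09, 1.09e-07). In deep shD3#1 *TGFBR3* was not called, while *CD109* was called higher and *BMPR2* lower. *ACVR1B*, a type I activin receptor, was at -0.66 (0.10, 2.80e-05) in shD3#1 and at -0.71 (0.06, 1.40e-07) in deep shD3#1, both called lower.

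Among the SMADs and adaptors 1 was called higher and 1 lower of 12 in shD3#1, 0 and 1 of 12 in deep shD3#1 and 0 of 12 in shD3#4 and siTHUMPD3. In shD3#4 and siTHUMPD3 edgeR gave an unadjusted p under 0.05 for 5 and 4 genes and DESeq2 also called 0. *SMAD2*, the partner of *SMAD3* under the type I receptor, fell in shD3#1 from 192 ± 3.74 to 88.6 ± 6.38 cpm (SD, n = 3 each; -1.12, 0.06, adjusted p = 8.03e-10). In deep shD3#1 it was called lower at -0.61 (0.05, 7.89e-08), a call lost without replicate 2 of that knockdown (-0.56). *ZFYVE9*, the anchor protein SARA that brings SMAD2 and SMAD3 to the receptor, rose in shD3#1 (0.61, 0.07, 8.76e-07) and was not called in deep shD3#1. *SMAD5* was the most abundant of the list and lay between -0.04 and 0.17 in all 4 comparisons.

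Among the negative regulators 4 were called higher and 1 lower of 18 in shD3#1, 3 and 1 of 18 in shD3#4, 3 and 0 of 19 in siTHUMPD3 and 4 and 0 of 19 in deep shD3#1. *NOG*, which binds BMP ligands, rose in shD3#1 from 1.15 ± 0.185 to 6.10 ± 0.296 cpm (SD, n = 3 each) and in deep shD3#1 from 0.669 ± 0.213 to 4.71 ± 0.457 cpm. *FST*, which binds activins, rose in shD3#4 (0.93, 0.08, adjusted p = 1.59e-09) and shD3#1 (0.70, 0.07, 7.29e-07). *FSTL3*, its relative and the most abundant of the list, fell in shD3#4 (-0.64, 0.07, 2.94e-08), a call lost without shD3#4 replicate 1 (-0.57). *LDLRAD4*, which keeps SMAD proteins from the receptor, was called lower in shD3#1 (-0.94, 0.20, 0.000788) and higher in shD3#4 (0.78, 0.15, 0.000107). In deep shD3#1 it was not called. *CHRD* was called higher in siTHUMPD3 from 14, 10 and 15 counts against 1 and 4, a call lost with DESeq2 (adjusted p = 0.0818), without siControl replicate 1 and without siTHUMPD3 replicate 2.

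Of the other TGF-beta-responsive genes, 14 were called higher and 0 lower of 22 in shD3#1, 2 and 5 of 22 in shD3#4, 9 and 0 of 22 in siTHUMPD3 and 9 and 2 of 22 in deep shD3#1 (DESeq2 gave the same counts where edgeR called 0 lower, and an unadjusted p under 0.05 was reached by 2 and 1 lower genes there), with median log2 fold changes of 0.72, -0.37, 0.75 and 0.35. Of these genes, 13 were called higher and 1 lower in the difference between the hairpins, where 25.9% of all genes were called in either direction. *PTHLH*, a secreted hormone-like protein, rose in all 3 knockdowns (2.30, 0.09, adjusted p = 8.20e-12 in shD3#1, 1.02, 0.11, 8.29e-08 in shD3#4 and 0.84, 0.24, 0.0321 in siTHUMPD3), the last lost without either siControl library. *FN1*, the matrix protein fibronectin, rose by 1.45 (0.09, 2.05e-12) in shD3#4 and by 1.16 (0.23, 0.0072) in siTHUMPD3, and was called at 0.59 (0.06, 5.40e-07) in shD3#1. The call in shD3#1 was lost when the low-count filter was dropped (0.58) or set to 10 counts throughout (0.58), when the 17 libraries were fitted jointly (0.58), without sh1Control replicate 1 (0.58) and without shD3#1 replicate 2 (0.55), and that in siTHUMPD3 was lost without siControl replicate 2 (adjusted p = 0.0695). In deep shD3#1 *FN1* was called higher at 0.95, a call kept under all 12 alternatives. *SNAI2* and *TAGLN*, both linked to mesenchymal cells, moved in opposite directions with the hairpins. *SNAI2* was at 2.48 (0.23, 2.09e-07) in shD3#1 and at -1.47 (0.40, 0.0041) in shD3#4, from at most 0.905 cpm in the controls, and *TAGLN*, chosen after its values were seen, at 0.98 (0.09, 1.98e-07) and -1.16 (0.10, 5.78e-10). *CDKN1A*, an inhibitor of the cell cycle that also answers to p53, rose most with the siRNA, from 66.8 ± 3.94 (SD, n = 2) to 764 ± 92.7 cpm (SD, n = 3). *MMP2*, a matrix protease, was called higher in shD3#1 (0.62, 0.17, 0.00559) and lower in deep shD3#1 (-0.88, 0.13, 4.57e-05). *CCN2*, chosen after its values were seen, was called higher in shD3#1 and siTHUMPD3 and was not called in shD3#4 or deep shD3#1. Its counts differed strongly between the tables, as given above. *COL1A1* belongs to this list and to the fibroblast markers.

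The 4 *ID* genes, targets of the BMP branch, were mostly not called. *ID4* was called higher in shD3#4 (0.64, 0.11, adjusted p = 4.17e-05), a call lost without sh4Control replicate 3 (0.56) or shD3#4 replicate 1 (0.58), and in deep shD3#1 (1.32, 0.40, 0.00964), where it was 2.00 without deep sh1Control replicate 3. *ID1*, the most abundant, was at -0.41 (0.06, 1.57e-05) in shD3#1 and between -0.30 and -0.02 in the other comparisons.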

How the data were processed

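RNA was extracted from A549 cells, depleted of rRNA and made into directional libraries. Per the labels and methods, the authors trimmed reads with Trimmomatic 0.40, aligned them to GRCh38.p14 with STAR 2.7.10a and deposited whole-number counts per gene, not normalised, for 17 first and 6 deep libraries. The strand setting of the counts is not given in the sources used here, and the first table carries Ensembl identifiers (61757 of 61806 matched to symbols in GENCODE 44), the deep table symbols. The members and lists were chosen with earlier results of these data known.

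Each table was normalised separately by TMM and filtered with filterByExpr in edgeR 4.0.16 (R 4.3.3), which left 16456, 16493, 17032 and 18763 genes in shD3#1, shD3#4, siTHUMPD3 and deep shD3#1. Each knockdown was fitted against its own controls with the quasi-likelihood test and Benjamini-Hochberg adjustment. Values in brackets after a log2 fold change are its standard error and the adjusted p, and 95% intervals use the t quantile. The average and the differences came from 1 fit of 17 libraries (18672 genes). DESeq2 1.42.0, other filters, a replicate block and leaving out each library were alternatives. The methods state 3 replicates, of which 2 of siControl were analysed here. Genes of the lists were named where they had the largest called rise or fall of a list in a comparison, were called alike in all 3 first comparisons or were the most abundant. A gene that this rule names is not reported here.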

Additional observations from a re-analysis of the deposited data

Results flagged for a closer look

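Of the 9 genes, 4 had an effect that differed between knockdowns by the test of the difference itself. Over all genes, 25.9% were called in the difference between the hairpins and 16.5% in that between the siRNA and the hairpins. The share of all genes called in either was not computed, so the count is not read as a result about these genes. The effect of shD3#1 exceeded that of shD3#4 by 1.22 log2 units for *TGFB1*, and lay below it by a difference of -1.38 for *TGFBR1*. The siRNA effect exceeded the mean shRNA effect by 1.18 for *TGFBR1*, 0.67 for *SMAD3* and 1.46 for *TGFBI*. For *TGFBR1* that mean joins unlike hairpin effects, -1.28 in shD3#1 and 0.10 in shD3#4, against 0.57 in siTHUMPD3. Between the siRNA and the hairpins, delivery, doxycycline, harvest day and target sequence cannot be told apart from the depth of knockdown. The hairpins shared the type of vector and the harvest day. Between them, target sequence, cell pool, doxycycline and depth of knockdown cannot be told apart. *THUMPD3* itself was lower with the siRNA than with the hairpins by a difference of -1.21, and lower with shD3#4 than with shD3#1 by 0.70.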

How the results depend on the processing

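The calls of *TGFBR2* in all 4 comparisons and of *TGFBI* and *TGFBR1* in shD3#1 were kept under every alternative run. The number of the 9 genes called was the same with DESeq2, with its size factors and with no filter, and with at least 10 counts in every sample it went from 2 to 3 in siTHUMPD3. With no threshold on the fold change it rose from 3 to 8 in shD3#1, from 2 to 5 in siTHUMPD3, from 3 to 9 in deep shD3#1, from 1 to 5 for the average, from 2 to 4 between the hairpins and from 3 to 5 between siRNA and hairpins, because fewer conditions were set. The shares of all genes without that threshold were not computed. With the replicate number as a replicate block the counts stayed at 3, 3, 2, 3, 1, 2 and 3. Deviations from the group means of same-numbered libraries had correlations from -0.108 to 0.142, and the numbers were not taken to pair the samples. In the siRNA samples, siTHUMPD3 replicate 3 correlated at 0.175 with siControl replicate 2. Replicates 1 and 2 of siTHUMPD3 correlated at 0.142 and 0.108 with siControl replicate 1. With 2 controls, the deviations mirror each other, and those of the 3 knockdown libraries cancel out. Some split of the knockdown libraries between the controls is thus forced, and these values cannot show whether the siRNA samples were paired. The block by number does not follow the split, and the part of any pairing in the siRNA results was not tested. Of the list counts, 36 moved by over 1.5 times with the adjusted p alone and 26 when 1 library was left out, where a lone siControl library was assumed to vary like the others.

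No called value changed sign. In siTHUMPD3 *SKIL* was at -0.0037 with DESeq2, -0.0033 with its size factors, -0.0228 with no filter and -0.0574 with the block, and *TGFB3* at -0.006 with no filter. Between the hairpins *SMAD3* was at 0.018 with DESeq2 and 0.0172 with its size factors. The causes were not tested. Leaving out 1 library turned the sign of values near 0. These were *TGFB3* in shD3#1 (-0.2148 to 0.0503), shD3#4 (-0.0964 to 0.0866), siTHUMPD3 (-0.0222 to 0.0511), the average (-0.0811 to 0.0108) and the difference between hairpins (-0.2151 to 0.0606). They were *ID1* (-0.0637 to 0.0257) and *SMAD5* (-0.0852 to 0.0078) in shD3#4, *SKIL* (-0.1901 to 0.206), *FSTL3* (-0.1937 to 0.0288) and *ID1* (-0.5728 to 0.0081) in siTHUMPD3, and *ID1* in deep shD3#1 (-0.1118 to 0.0326). Between hairpins it was *SMAD3* (-0.033 to 0.026), and between siRNA and hairpins *SKIL* (-0.0321 to 0.369) and *TGFB1* (-0.4768 to 0.0153). Depth limited *TGFB3*, which had as few as 15 counts in a library.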
